A study of Mus musculus with 12 samples.

Results

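Thioredoxins, thioredoxin reductases and peroxiredoxins were followed in ribosome-bound and total RNA of the ventromedial nucleus (VMN) of mouse hypothalamus. The members were 10 genes chosen by name, Txn1, Txn2, Txnrd1, Txnrd2 and Prdx1 to Prdx6, out of 46517 gene identifiers, and all 10 were found and passed the filter on low counts in the main fit of every comparison. The aim was to set Txn2, which the published study of these samples reported on, against its relatives in level, spread, output over input, and DN against CTRL. Its values are therefore no independent support for that study. Across the 5 comparisons none of the 10 genes passed the main test, while Txn2 was lower in every DN output and higher in every DN input than in the CTRL libraries of the same fraction.

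The 12 libraries came from 6 pools of 6 animals, all fed regular chow and fasted overnight. Translating ribosome affinity purification (TRAP) pulls down a tagged ribosomal protein, here GFP-L10 delivered by an adeno-associated virus (AAV), together with the RNA its ribosomes hold. DN outputs and CTRL outputs are the pulled-down RNA, labelled as coming from SF1 cells, and DN inputs and CTRL inputs are RNA of the dissected VMN of the same pools, with 3 libraries in each of these 4 groups. DN animals carried a second AAV for a dominant-negative mutant of AMPK, a kinase that responds to low cellular energy. The treatment text of the CTRL libraries names this AAV too, whereas their characteristics record the mutant as absent, and titles and characteristics were followed. The labels used here name no promoter, Cre driver, strain or age, nor a replacement virus for CTRL animals, so the mutant itself and the extra AAV cannot be told apart.

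Thioredoxins are small proteins that reduce disulfides through a pair of cysteines, and thioredoxin reductases, which are selenoproteins, return them to the reduced state with electrons from NADPH. Most peroxiredoxins destroy hydrogen peroxide with a reactive cysteine and are then reset by thioredoxin. The system is split between compartments: Txn1, Txnrd1, Prdx1, Prdx2 and Prdx6 act mainly in the cytosol, Txn2, Txnrd2 and Prdx3 in mitochondria, Prdx4 in the endoplasmic reticulum, and Prdx5 in several compartments. Peroxiredoxins of the cytosol are abundant in brain.

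The active sites show how close the relatives are, since reads can be assigned to the wrong gene only where sequences are near identical. The stretches below are coding-strand bases of GENCODE release 21 transcripts on GRCm38, with the codons of the active-site motif in capitals. In the thioredoxins the capitals hold the pair of cysteine codons, and in the peroxiredoxins they end with the codon of the reactive cysteine.
Txn1: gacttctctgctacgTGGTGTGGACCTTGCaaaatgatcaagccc
Txn2: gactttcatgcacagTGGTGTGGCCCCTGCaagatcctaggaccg
Prdx1: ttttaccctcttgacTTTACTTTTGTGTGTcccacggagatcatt
Prdx2: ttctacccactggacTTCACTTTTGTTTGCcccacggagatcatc
Prdx3: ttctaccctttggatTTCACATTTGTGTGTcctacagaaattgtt
Prdx4: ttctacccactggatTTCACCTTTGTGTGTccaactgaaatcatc
Prdx5: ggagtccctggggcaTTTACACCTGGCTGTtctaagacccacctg
Prdx6: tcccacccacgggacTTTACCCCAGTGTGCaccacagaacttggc

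Over their coding sequences the relatives were far from identical. Txn1 and Txn2, with coding lengths of 315 and 498 bases, matched at 72.7% of 271 aligned bases. Txnrd1 and Txnrd2 matched at 69.2%, and pairs of peroxiredoxins at 69.4% to 75.9%. Closer copies elsewhere in the annotation were given few counts. The copy of Txn1 had 4 counts in all libraries together, the 3 copies of Prdx1 had 50 and the 2 of Prdx2 had 4. The 2 copies of Prdx6 had 1, among them Prdx6b with no count at all. Copies of Prdx1 reached 98.4% identity and Prdx6b reached 94.6%. Reads that fit a gene and its copy equally may have been set aside as not unique. The counts of copies therefore do not show how many reads the members lost. No other gene matched the coding sequence of Txn2 at 90% identity or more over at least 100 bases. Outside its coding sequence, however, Txn2 transcripts hold a stretch of up to 188 bases that matches 108 other genes, where reads may have been set aside as not unique. Prdx2 overlaps Junb and Rnaseh2a, and Prdx5 overlaps Trmt112, on opposite strands, and the strand setting of the counting is not given in the sources used here. These neighbours had 101, 444 and 183 counts in all libraries.

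The libraries held 34.64 to 55.46 M gene counts, of which genes of the mitochondrial chromosome took 24.9% ± 1.01 in DN outputs, 22.4% ± 3.90 in CTRL outputs, 78.6% ± 1.03 in DN inputs and 75.9% ± 1.09 in CTRL inputs (SD, n = 3 each). Nuclear genes were left with 8.54 to 32.14 M. Of 8 VMN markers, 7 were called higher in outputs in both DN and CTRL pools. No marker of any cell type checked was at 0 in all libraries. Prkaa1 and Prkaa2, the genes of the catalytic AMPK subunits, did not pass in outputs, at log2 fold changes of -0.37 ± 0.31 and 0.09 ± 0.22 for DN against CTRL (SE). Counts that do not separate mutant from native transcripts cannot show whether the mutant was made. Nothing in the labels says that pools were prepared on separate occasions, so p-values measure only the spread between these pools.

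Levels are given as normalized CPM, with library sizes corrected by TMM, and genes are compared with each other only after division by the exon length in kilobases. Txn1 (ENSMUSG00000028367, chr4:57943373-57956411, minus strand) held the first rank in outputs, with 24.7 ± 7.38 CPM per kb in DN outputs and 15.2 ± 3.03 in CTRL outputs, and the second rank in inputs. Prdx1 and Prdx2, the main cytosolic peroxiredoxins, stood beside it: Prdx2 had 16.6 ± 2.22 CPM per kb in DN outputs and 12.8 ± 3.78 in CTRL outputs, and Prdx1 had 12 ± 5.26 in DN outputs and 13.7 ± 5.02 in CTRL outputs. Prdx6 and Prdx3 followed at ranks 4 and 5, and Prdx4, Prdx5 and Txnrd1 at ranks 6 to 8. Txn2 (ENSMUSG00000005354, chr15:77915047-77929006, minus strand) was ninth in all 4 groups, at 0.459 ± 0.232 CPM per kb in DN outputs, 1.39 ± 0.0832 in CTRL outputs, 1.79 ± 0.68 in DN inputs and 0.533 ± 0.233 in CTRL inputs. Txnrd2, the mitochondrial reductase, was last, with means of 0.0831 to 0.198 CPM per kb. The mitochondrial pair of thioredoxin and reductase thus stood below the cytosolic pair in every group, whereas Prdx3, the mitochondrial peroxiredoxin, stood in the middle of the order.

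Much of that order was within the spread of the libraries. Of the 9 pairs of neighbours in the order, the 3 libraries of each gene did not overlap for 0 pairs in DN outputs, 4 in CTRL outputs, 1 in DN inputs and 5 in CTRL inputs. Txn2 lay wholly below Txnrd1 in CTRL outputs and wholly below Prdx4 in CTRL inputs, but overlapped its upper neighbour in both DN fractions. The order also depended on the length used. With the mean length of protein-coding transcripts in place of all exons, Txn1 came at rank 3 in DN outputs and rank 4 in the other groups, behind Prdx1 and Prdx2 in all 4, while Txn2 stayed ninth except in DN inputs, where it was eighth above Txnrd1.

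**Figure D1:**
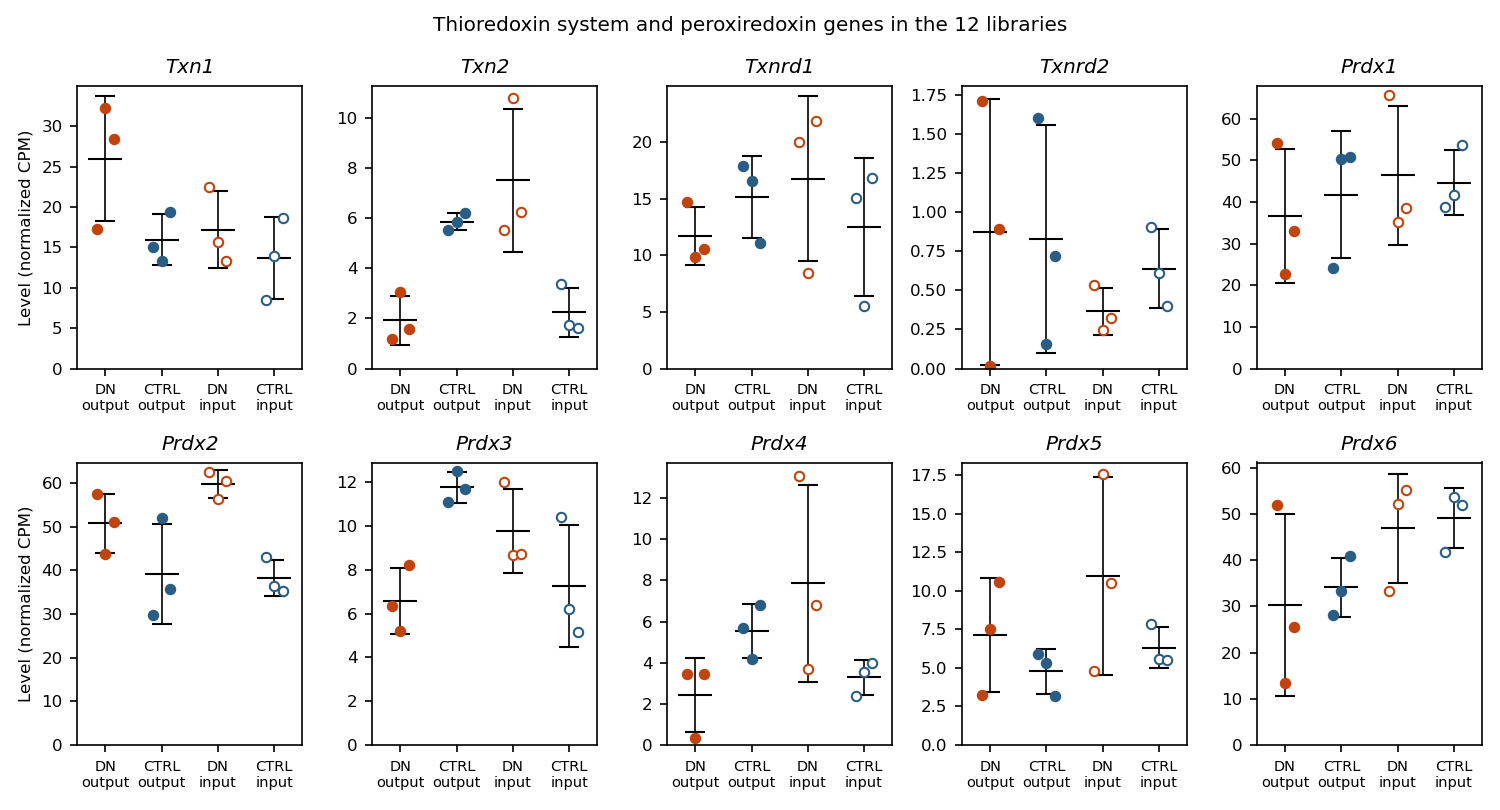
Normalized CPM (y axis, linear, own scale per gene) of the 10 genes in DN output, CTRL output, DN input and CTRL input libraries; points are libraries, bars the mean and SD of 3. For Txn2 the 3 DN outputs lie between 1.19 and 3.04 CPM, all below the CTRL outputs at 5.52 to 6.22, and the 3 DN inputs lie at 5.53 to 10.8, all above the CTRL inputs at 1.61 to 3.37.

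Txn2 and Prdx3 varied less among the CTRL outputs than most genes of their level. Txn2 had 387, 377 and 379 counts there, or 5.52, 5.86 and 6.22 CPM, a coefficient of variation (CV, SD over mean) of 5.97%, where counting error alone would give 5.13%. Among 2186 genes within a factor of 1.5 of its level in that group, the median CV was 48.7% and 0.961% of genes had a lower one. Prdx3 had a CV of 6.07% in CTRL outputs, with 1.64% of 2192 genes of similar level lower. These are descriptions of 3 libraries, and in the other groups neither gene kept so small a spread. The CV of Txn2 was 50.5% in DN outputs, 38.1% in DN inputs and 43.7% in CTRL inputs, against medians of 79.4%, 50.8% and 61.6% for genes of similar level.

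The spread of the other members followed no common pattern. Of the 10 members, 5 in DN outputs, 8 in CTRL outputs, 5 in DN inputs and 8 in CTRL inputs had a CV below the median of genes of similar level. In DN outputs Prdx6 was the most uneven of the abundant members: it had 52.0, 13.5 and 25.5 CPM there, a CV of 64.8%, and 93.2% of genes of similar level were more even. Prdx2 was the most even of the 10 in both inputs, with a CV of 5.33% in DN inputs and 10.6% in CTRL inputs. Txnrd2 stayed below 2 CPM in every library and had 1 count in the second DN output, so its ratios carry little information.

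**Figure D2:**
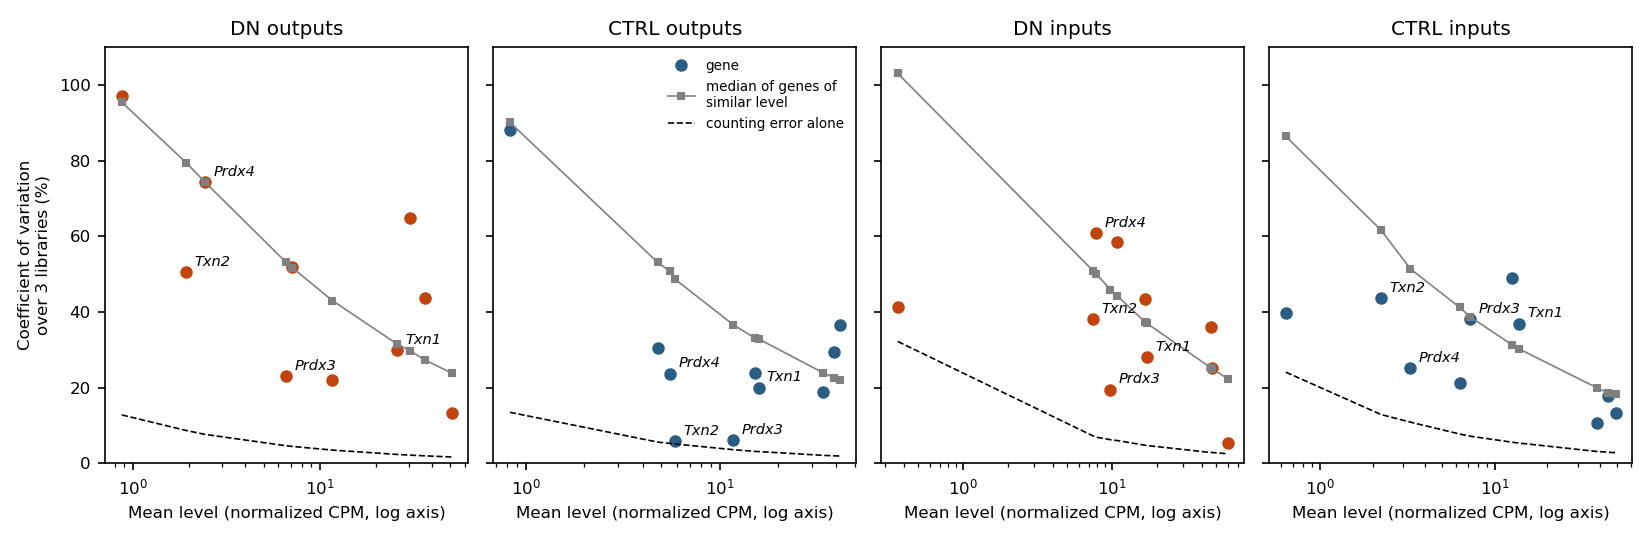
Coefficient of variation over the 3 libraries of a group (y axis, %) against mean level (x axis, normalized CPM, log scale) for the 10 genes, with panels for DN outputs, CTRL outputs, DN inputs and CTRL inputs; squares joined by a line give the median CV of genes of similar level, and the dashed line gives counting error alone. Txn2 and Prdx3 lie near the dashed line in CTRL outputs, at 5.97% and 6.07%, and well above it in the other panels.

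In outputs, the question was whether the dominant-negative virus changed these genes in ribosome-bound RNA. Txn2, the mitochondrial thioredoxin, had 81, 204 and 114 counts in DN outputs, or 1.19, 3.04 and 1.57 CPM, against 5.52, 5.86 and 6.22 CPM in CTRL outputs. All DN outputs were lower than all CTRL outputs. The log2 fold change was -1.60 ± 0.79 (SE; 95% interval -3.34 to 0.13), with adjusted p = 0.916 by edgeR's quasi-likelihood test. Over the alternative analyses adjusted p ranged from 0.142 to 1.0, so Txn2 passed under none of those run.

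Txn1, the cytosolic thioredoxin, did not share that direction. It had 17.3, 32.2 and 28.4 CPM in DN outputs, against 15.1, 13.3 and 19.4 CPM in CTRL outputs, so the groups overlapped, and its log2 fold change was 0.70 ± 0.39 (adjusted p = 0.948). For the reductases the fold changes were -0.38 ± 0.45 for Txnrd1 and 0.08 ± 1.57 for Txnrd2, with overlapping groups for both.

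Among the peroxiredoxins, Prdx3 and Prdx4 were lower in all DN outputs. Prdx3 (chr19:60864051-60874556, minus strand), which works with Txn2 in mitochondria, had 6.33, 5.2 and 8.21 CPM in DN outputs, against 11.1, 12.5 and 11.7 CPM in CTRL outputs. Its log2 fold change was -0.84 ± 0.52 (adjusted p = 0.949). Prdx4 (chrX:155323918-155340754, minus strand), the peroxiredoxin of the secretory pathway, had 3.47, 0.342 and 3.47 CPM in DN outputs, against 5.69, 4.18 and 6.81 CPM in CTRL outputs. The second DN output, with 23 counts, lay far below the other libraries, and the log2 fold change was -1.19 ± 0.93 (adjusted p = 0.949), or -0.68 without that library. The other peroxiredoxins overlapped between DN and CTRL outputs, with log2 fold changes from -0.19 ± 0.39 for Prdx1 to 0.57 ± 0.70 for Prdx5.

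None of the 10 members passed in outputs, where edgeR called 0.0% of the 13333 genes tested, 5.41% had an unadjusted p below 0.05, and DESeq2 called 1.21%. No member had an unadjusted p below 0.05 and DESeq2 called none. The DN outputs of 3 members, Txn2, Prdx3 and Prdx4, all lay below the CTRL outputs, as they did for 5.87% of all genes, and no member had all DN outputs above, against 5.18% of all genes. The median log2 fold change of the 10 members was -0.18, against 0.01 for all genes tested, and it was -0.69 without the first DN output and 0.13 without the second. VMN markers summed to 1717 to 2347 CPM in DN outputs and 1404 to 1616 in CTRL outputs, with a median log2 fold change of 0.43. The largest part was Slc17a6, at 838 ± 145 CPM in DN outputs and 665 ± 47.8 in CTRL outputs (SD). Nr5a1, the gene of SF1, was level at 22.4 ± 10.4 and 22.7 ± 12.2 CPM, while all other VMN markers had higher means in DN outputs. Astrocyte markers summed to 1024 to 1131 CPM in DN outputs and 1516 to 1724 in CTRL outputs, mostly through Slc1a2, a glutamate transporter at 914 ± 61.1 CPM in DN outputs and 1413 ± 107 in CTRL outputs (SD, n = 3 each). The median of that list was -0.03, and Aqp4, a water channel of astrocytes, had 84.5 ± 11 CPM in DN outputs and 86.3 ± 18.1 in CTRL outputs. Oligodendrocyte markers summed to 168 to 252 CPM in DN outputs and 198 to 354 in CTRL outputs. Their median log2 fold change was -0.73. Medians were -0.43 for microglia markers, 0.04 for neuron markers and 0.31 for endothelium markers. No marker passed the test in this comparison, and the part of cell makeup in the values above was not tested. In bulk RNA, fewer cells of a type and less RNA per cell cannot be told apart.

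In inputs, the total RNA of the dissected tissue, Txn2 stood the other way round. It had 5.53, 10.8 and 6.24 CPM in DN inputs, against 3.37, 1.75 and 1.61 CPM in CTRL inputs. All DN inputs were higher, and the log2 fold change was 1.74 ± 0.69 (95% interval 0.23 to 3.25; adjusted p = 0.997, range over alternatives 0.201 to 1.0). These levels rest on 155, 267 and 156 counts in DN inputs and 97, 49 and 36 in CTRL inputs, fewer than in CTRL outputs.

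Prdx2 (chr8:84969587-84974834, plus strand), the cytosolic peroxiredoxin best known from red blood cells and neurons, was the other gene with separate groups. It had 62.6, 56.3 and 60.4 CPM in DN inputs, against 43.0, 36.5 and 35.4 CPM in CTRL inputs. The difference was 0.64 ± 0.23 on the log2 scale (adjusted p = 0.997), and in outputs Prdx2 was at 0.37 ± 0.29 with overlapping groups. Prdx4 had 13.1, 3.68 and 6.79 CPM in DN inputs, against 2.36, 3.54 and 3.97 CPM in CTRL inputs, at 1.25 ± 0.68 with 1 overlapping library, and 0.67 without the first DN input. Txn1 at 0.33 ± 0.44, Txnrd1 at 0.43 ± 0.53, Prdx3 at 0.43 ± 0.53 and Prdx5 at 0.79 ± 0.58 had positive estimates that did not pass, Prdx1 and Prdx6 were within 0.06 of 0, and Txnrd2 was at -0.80 ± 1.21.

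In inputs edgeR called 0.00756% of the 13221 genes tested, which is 1 gene, the mitochondrial ribosomal RNA mt-Rnr1, and no member. An unadjusted p below 0.05 was found for 2 members, Txn2 and Prdx2, and for 4.46% of all genes, and DESeq2 called no member and 0.356% of genes. Both of those members had all DN inputs above all CTRL inputs, as did 5.17% of all genes, and no member had all DN inputs below, as did 5.37%. The members' median was 0.43, against 0.03 for all genes, and lay between 0.26 and 0.66 when 1 library was left out. VMN markers summed to 532 to 719 CPM in DN inputs and 506 to 568 in CTRL inputs. Their median log2 fold change was 0.35. Nr5a1 had 6.49, 6.88 and 4.72 CPM in DN inputs, against 1.95, 2.97 and 1.29 CPM in CTRL inputs. Of the VMN markers only Sox14 had a lower mean in DN inputs, at 0.202 ± 0.082 CPM against 1.46 ± 0.877 (SD). Neuron markers summed to 3966 to 4260 CPM in DN inputs and 3234 to 3791 in CTRL inputs. The median log2 fold change of the neuron list was 0.28. Most of that sum was Snap25, at 3426 ± 156 CPM in DN inputs and 2777 ± 334 in CTRL inputs (SD). Syt1 alone of the list had a lower mean in DN inputs, at 398 ± 36.4 CPM against 428 ± 68.3 in CTRL inputs. Ependyma markers summed to 4.21 to 12.1 CPM in DN inputs and 2.16 to 5.35 in CTRL inputs, with a median log2 fold change of 1.05. No marker of these lists passed the test. Of the 4 ependyma markers, Ccdc153 had 4.07, 2.95 and 2.68 CPM in DN inputs, against 0.348, 0.322 and 0.803 CPM in CTRL inputs. The other markers of that list overlapped between DN and CTRL inputs. Foxj1 had 3.06 ± 2.81 CPM in DN inputs and 1.85 ± 1.35 in CTRL inputs (SD, n = 3 each). Tmem212 had 2.12 ± 1.85 and 0.818 ± 0.636, and Rarres2 had 0.759 ± 0.0365 and 0.674 ± 0.444. The part of any of these lists in the values of Txn2 and Prdx2 was not tested.

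**Figure D3:**
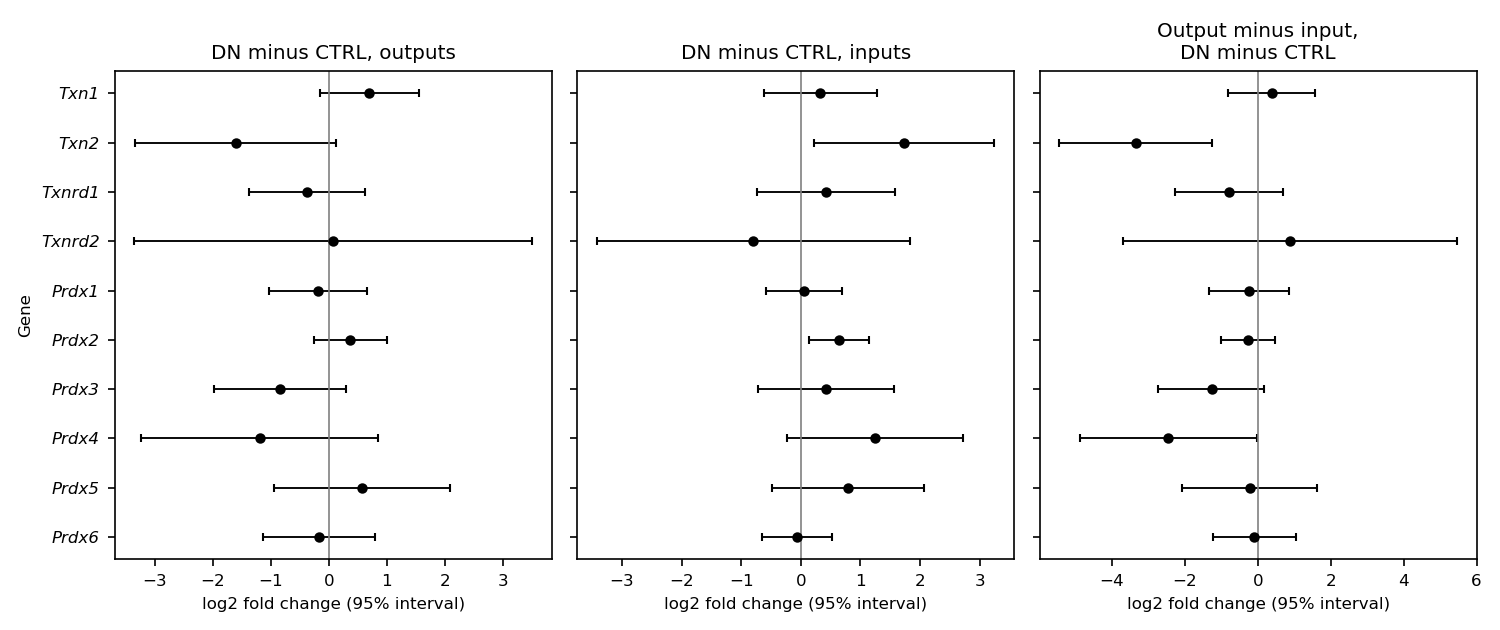
Fitted log2 fold changes (x axis) of the 10 genes (rows) for DN minus CTRL in outputs, DN minus CTRL in inputs, and the difference between them; points are edgeR estimates and bars 95% intervals. Txn2 is at -1.60 in outputs and 1.74 in inputs, and its difference is -3.34, with an interval of -5.44 to -1.25.

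The ratio of output to input within a pool shows whether the pull-down held more or less of a transcript than the tissue it came from, here as the log2 ratio of normalized CPM plus 1. Txn2 had ratios of -1.57, -1.55 and -1.5 in the DN pools, against 0.58, 1.32 and 1.47 in the CTRL pools. All DN pools were below 0 and all CTRL pools above it, with means of -1.54 ± 0.04 in DN pools and 1.12 ± 0.48 in CTRL pools (SD, n = 3 pools each). The difference between these means was -2.66, with exact permutation p = 0.1 (two-sided), the smallest p that 3 pools against 3 can give. Any gene whose DN and CTRL pools do not overlap gets that same p. The added 1 is large beside the Txn2 levels in DN outputs, at 1.19, 3.04 and 1.57 CPM. With genes of the mitochondrial chromosome left out, the Txn2 ratios were -1.88, -1.69 and -1.73 in DN pools. In CTRL pools they were then 0.65, 1.55 and 1.71. The SD of 0.04 between DN pools thus depends on the scale used. Prdx3 had ratios of -0.82, -0.64 and -0.08 in DN pools, against 0.09, 0.91 and 1.04 in CTRL pools. Prdx4 had ratios of -1.65, -1.80 and -0.80 in DN pools, against 0.99, 0.19 and 0.65 in CTRL pools. Both therefore also lay below 0 in every DN pool and above 0 in every CTRL pool, with differences of -1.19 and -2.03, although for Prdx3 the nearest DN and CTRL pools almost met. Those 3 members were the only ones of the 10 with this pattern, which 0.999% of 15011 genes had, and 0.953% had its mirror image.

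The remaining members showed no such split between pools. Txn1 was above 0 in 2 of 3 DN pools and 2 of 3 CTRL pools, with means of 0.55 ± 0.80 in DN pools and 0.25 ± 0.45 in CTRL pools. Txnrd1 ranged from -0.98 to 0.21 in DN pools and from -0.57 to 1.44 in CTRL pools. Prdx1, Prdx2 and Prdx5 differed between DN and CTRL pools by -0.21, -0.24 and -0.17, less than the SD between CTRL pools in each case. Prdx6 had ratios of 0.62, -1.87 and -1.08 in DN pools, against -0.55, -0.67 and -0.34 in CTRL pools.

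**Figure D4:**
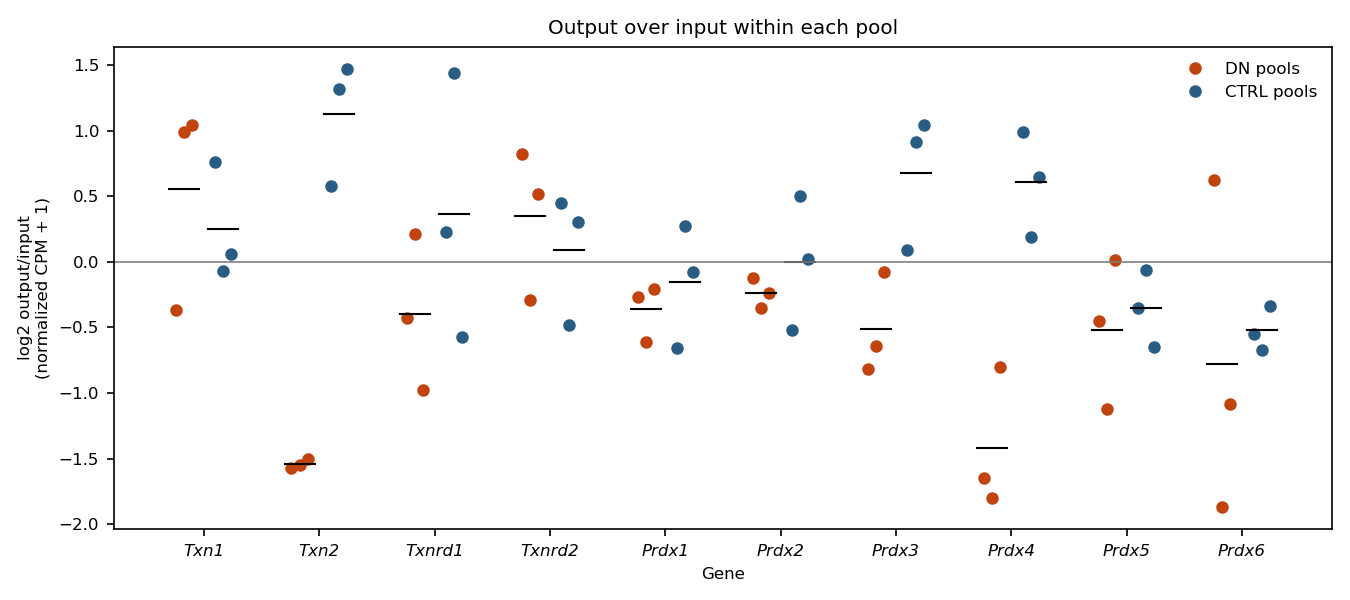
Log2 ratio of output to input (y axis, normalized CPM plus 1) of each gene in the 3 DN pools and the 3 CTRL pools; points are pools, short bars their means and the long line a ratio of 0. For Txn2, Prdx3 and Prdx4 all DN pools lie below the line and all CTRL pools above it; the Txn2 DN pools lie between -1.57 and -1.5.

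Tested as groups, output against input gave no member past the threshold with edgeR in either kind of pool. In DN pools Txn2 was at -1.97 ± 0.85 (95% interval -3.81 to -0.13; adjusted p = 0.28, range over alternatives 0.0186 to 0.546), where the low end came from DESeq2, the only alternative that called it. In CTRL pools Txn2 was at 1.37 ± 0.67 (adjusted p = 0.341, range 0.0814 to 0.656), Prdx3 at 0.69 ± 0.46 and Prdx4 at 0.74 ± 0.63, with every output above every input. In DN pools Prdx3 was at -0.58 ± 0.62 and Prdx4 at -1.70 ± 0.98, with every output below every input. The share of all genes called was higher here. EdgeR called 3.38% of 13041 genes in DN pools and 3.2% of 13456 genes in CTRL pools, and DESeq2 10.9% in each. An unadjusted p below 0.05 was found for 1 member, Txn2, and 15.7% of genes in DN pools, and for no member and 16.3% of genes in CTRL pools. In DN pools 3 of 10 members had all outputs below all inputs, as had 10.9% of genes, and none had all above, as had 11.6%. In CTRL pools 3 members had all outputs above all inputs, as had 12% of genes, and 1, Prdx6, had all below, as had 11.2%. The members' median was -0.56 in DN pools, against 0.00 for all genes there, and 0.24 in CTRL pools, against 0.02 for all genes. Leaving out 1 pool gave medians of -0.57 to -0.23 in DN pools and 0.10 to 0.28 in CTRL pools.

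Prdx6, the peroxiredoxin with a lone catalytic cysteine, known in mouse brain mainly from astrocytes, had 28.1, 33.3 and 40.9 CPM in CTRL outputs, against 41.7, 53.6 and 52.0 CPM in CTRL inputs. All CTRL outputs were lower, at -0.54 ± 0.25 on the log2 scale (adjusted p = 0.31). Astrocyte markers were also lower there, with sums of 1516 to 1724 CPM in CTRL outputs and 2730 to 3297 in CTRL inputs. Of 8 astrocyte markers, 6 were called lower in CTRL outputs, and their median log2 fold change was -1.88. Markers of other cell types outside neurons fell too. Of 8 oligodendrocyte markers, 5 were called lower, with a median of -2.21. Microglia markers had a median of -3.29 and endothelium markers of -1.81. The part of any of these lists in the Prdx6 value was not tested. In DN pools Prdx6 was at -0.64 ± 0.45, and the first DN output, at 52.0 CPM, overlapped the DN inputs at 33.4, 52.2 and 55.2 CPM.

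The difference of the output-input effects between DN and CTRL pools, which equals the DN effect in outputs minus that in inputs, was largest in size for Txn2 among the 10 genes. It was -3.34 ± 0.99 on the log2 scale (95% interval -5.44 to -1.25; edgeR adjusted p = 0.691), and its p stood at rank 59 of 15011 genes. Leaving out any 1 pool gave values between -3.80 and -3.11. DESeq2 called it, with adjusted p = 0.000867, whereas with the pool as a block in edgeR the value was -3.48 and adjusted p was 1.0. Prdx4 followed at -2.45 ± 1.15 (adjusted p = 0.799) and Prdx3 at -1.27 ± 0.69 (adjusted p = 0.836). Txn1 was at 0.38 ± 0.57, Txnrd1 at -0.80 ± 0.70 and Txnrd2 at 0.88 ± 2.16, and the other peroxiredoxins at -0.27 to -0.10. EdgeR called 0.0% of the 15011 genes and no member, 6.22% of genes and 2 members, Txn2 and Prdx4, had an unadjusted p below 0.05, and DESeq2 called 1.01% of genes and 1 member, Txn2. All 5 comparisons are drawn from the same 12 libraries and so do not count as separate support for each other. DN below CTRL in all outputs together with DN above CTRL in all inputs was found for 41 genes, or 0.273%, and for Txn2 as the only member, and the mirror image for 35 genes, or 0.233%.

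Partner genes of the system were read from a list of 33 genes in 6 roles. None passed with edgeR in any comparison. In outputs, 32 were tested, and the partners' median was -0.06. Of these, 1 had an unadjusted p below 0.05, against 5.41% of all genes. That gene was Nxn, nucleoredoxin, a thioredoxin relative that binds Dishevelled, with 0.294, 0.596 and 0.494 CPM in DN outputs, against 3.14, 1.57 and 5.81 CPM in CTRL outputs. All DN outputs were lower, at -2.92 ± 1.09 (edgeR adjusted p = 0.911, DESeq2 adjusted p = 0.0293). The next smallest p-values in outputs belonged to the mitochondrial glutaredoxin Glrx2 at 0.67 ± 0.33, the endoplasmic reticulum thioredoxin-like Txndc12 at -1.16 ± 0.58 and the glutathione peroxidase Gpx1 at -1.30 ± 0.74, with overlapping groups for all. Srxn1, the sulfiredoxin that repairs overoxidized peroxiredoxins, was at -0.63 ± 0.49, and Sesn1, Sesn2 and Sesn3 were at 0.39 ± 0.48, -1.27 ± 1.22 and -0.04 ± 0.25.

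In inputs 31 partners were tested and 2 had an unadjusted p below 0.05, against 4.46% of all genes. Sod2, the mitochondrial superoxide dismutase that makes hydrogen peroxide from superoxide, had 163, 200 and 157 CPM in DN inputs, against 133, 118 and 140 CPM in CTRL inputs (0.41 ± 0.18 log2, edgeR adjusted p = 0.997). Txndc17, a cytosolic thioredoxin-like protein, had 28.1, 29.5 and 34.1 CPM in DN inputs, against 15.9, 19.8 and 20.1 CPM in CTRL inputs (0.72 ± 0.31, edgeR adjusted p = 0.997). DN inputs were higher than all CTRL inputs for both, and DESeq2 called neither. The partners' median in inputs was -0.03.

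Between outputs and inputs, Txnip, the arrestin-like protein that binds and inhibits thioredoxin, had the lowest fold changes among the partners in both kinds of pool. It had 0.0147, 0.67 and 0 CPM in DN outputs, against 8.1, 1.62 and 5.56 CPM in DN inputs. In CTRL outputs it had 0.171, 1.24 and 0.656 CPM, against 2.64, 2.79 and 8.61 CPM in CTRL inputs. All outputs were lower, at -4.48 ± 1.72 in DN pools (edgeR adjusted p = 0.216, DESeq2 adjusted p = 0.0413) and -2.78 ± 1.0 in CTRL pools (edgeR adjusted p = 0.185, DESeq2 adjusted p = 0.0242). In CTRL pools, DESeq2 also called G6pdx, an NADPH-producing enzyme, at -1.36 ± 0.44, Txndc12 at 1.24 ± 0.44, Txndc17 at 0.81 ± 0.30 and Map3k5, the stress kinase that reduced thioredoxin holds inactive, at 1.19 ± 0.45. Their edgeR adjusted p-values were 0.139 to 0.203. With Txnip, DESeq2 called 5 of the 33 listed partners in CTRL pools and 1 in DN pools, beside 10.9% of all genes in each. An unadjusted edgeR p below 0.05 was found for 6 of 31 partners tested and 16.3% of genes in CTRL pools. In DN pools it was found for 2 of 32 partners tested and 15.7% of genes. The partners' medians for output against input were -0.05 in DN pools and 0.04 in CTRL pools, and their median difference was -0.08. For the difference 33 partners were tested, and 1, Nxn, had an unadjusted edgeR p below 0.05, against 6.22% of all genes. Nxn was at -3.67 ± 1.68 (edgeR adjusted p = 0.781, DESeq2 adjusted p = 0.273). The next smallest p-values belonged to Gpx1 at -1.83 ± 0.99, Glrx2 at 0.91 ± 0.5 and G6pdx at 1.31 ± 0.73.

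Over the 12 libraries, the genes whose log2 levels ran most like those of Txn2 were Shisal2b (Pearson r = 0.92), Wdr60 (0.88), Rpl32 (0.87), Ccdc65 (0.87) and Zfp113 (0.87), of 13438 protein-coding genes compared. These are descriptions over libraries that fall into 4 groups and share pools, and carry no p. Shisal2b had means of 0.404 CPM in DN outputs, 2.33 in CTRL outputs, 3.65 in DN inputs and 0.731 in CTRL inputs. Rpl32, a protein of the large ribosomal subunit, had means of 21.9 CPM in DN outputs, 30.6 in CTRL outputs, 41.3 in DN inputs and 26.0 in CTRL inputs. Among the members, Prdx3 was nearest to Txn2 at r = 0.67, followed by Prdx4 at 0.36 and Prdx5 at 0.34. Txn1 was at -0.23 and Txnrd2, the reductase of Txn2, at -0.35. The levels of Txnrd2 were too low for its r to carry much information.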

How the data were processed

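The authors deposited raw counts of reads per Ensembl gene, 1 table per library, with no normalization. The submitters' processing notes name GRCm38 as the build and HTSeq 0.6.1, STAR 2.4.2a and cutadapt 1.3 as tools; annotation release and strand setting were not given in these sources. Not every overlap of a member with another gene is reported here. Per the labels, RNA was linearly amplified, which can add spread to low counts, and no molecular identifiers are named. The 5 HTSeq classes without a gene were left out. Together they made up 16.06% to 26.1% of all entries. This share includes the reads that were not unique, which made up 10.8% to 13.54% of all entries. GENCODE release 21 gave symbols for 46005 of 46517 identifiers (98.9%). Counts differed between every pair of libraries.

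Tests were edgeR 4.0.16 quasi-likelihood fits in R 4.3.3 (TMM, filterByExpr with minimum count 10 and total 15, two-sided, Benjamini-Hochberg over all genes tested at 0.05) on the 6 libraries of each comparison, with all 12 for the difference. DESeq2 1.42.0 was an alternative, beside its size factors, no filter, no genes of the mitochondrial chromosome, a replicate block and leaving out each replicate. Scripts were tested on simulated data.

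The members, partner and marker lists and rules were chosen with earlier results of these data known. Always named were the 10 members; of partners, up to 4 with the smallest p per comparison and those passing a test; and the 5 protein-coding genes most like Txn2. Srxn1, Sesn1, Sesn2 and Sesn3 were named for their role, after their values were seen. Each pool gave both an input and an output, which pairs them by design; their deviations from group means correlated at r = 0.004, -0.002 and 0.015 in DN pools and 0.096, 0.035 and 0.156 in CTRL pools. DN and CTRL pools share only numbers.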

Additional observations from a re-analysis of the deposited data

Results flagged for a closer look

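Txn2 differed between DN and CTRL in opposite directions in the 2 fractions, lower in all DN outputs and higher in all DN inputs. It passed in neither fraction under any analysis run. The test of the difference between the fractions gave -3.34 ± 0.99 on the log2 scale, with edgeR adjusted p = 0.691 and DESeq2 adjusted p = 0.000867. The output over input ratio lay below 0 in all DN pools and above 0 in all CTRL pools for 3 members. The means of DN minus CTRL pools differed by -2.66 for Txn2, by -2.03 for Prdx4 and by -1.19 for Prdx3. Because these pools do not overlap, the exact permutation p of each was fixed at 0.1, the smallest p that 3 pools against 3 can give, and adds nothing. The same pattern was found for 0.999% of all genes.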

How the results depend on the processing

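No member passed with edgeR under any alternative run. DESeq2 called 1 member, Txn2, in output against input in DN pools (-2.0, adjusted p = 0.0186) and 1, again Txn2, in the difference (-3.35, adjusted p = 0.000867). Over all genes DESeq2 called 169 in outputs, 50 in inputs, 1568 and 1651 for output against input in DN and CTRL pools, and 170 for the difference, against 0, 1, 441, 431 and 0 with edgeR. Without the filter edgeR called 39 in inputs, 976 and 903 in DN and CTRL pools, and 54 for the difference. DESeq2 size factors, leaving out mitochondrial genes and the replicate block each gave 0 in inputs. The replicate block, which joins input and output of a pool but only numbers between DN and CTRL, gave 396 calls in DN and 527 in CTRL pools and changed no member's call. Leaving out 1 replicate gave 0 to 8 calls in inputs, 115 to 148 in DN pools and 45 to 214 in CTRL pools, whichever pool was left out; the 8 came without the third CTRL input. The median of all genes was -0.20 in both output-input comparisons with DESeq2, which tested without the filter; edgeR without the filter gave -0.05 in DN pools and -0.09 in CTRL pools.

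Of the members' values under alternatives, 465 kept direction and side of the threshold, 2 passed newly and 22 changed sign. With the block, Txnrd2 was at -0.70 in outputs and -0.04 in CTRL pools, and Prdx2 at -0.01 in CTRL pools. Leaving out a replicate moved values across 0 in outputs for Txnrd2 (-0.85 to 0.99), Prdx1 (-0.58 to 0.07) and Prdx6 (-0.80 to 0.19), and in inputs for Prdx1 (-0.28 to 0.22) and Prdx6 (-0.20 to 0.13). In CTRL pools it did so for Txn1 (-0.01 to 0.35), Txnrd1 (-0.15 to 0.74), Txnrd2 (-0.21 to 0.82), Prdx1 (-0.31 to 0.07) and Prdx2 (-0.26 to 0.28). In the difference it did so for Prdx2 (-0.52 to 0.03), Prdx5 (-0.65 to 0.26) and Prdx6 (-0.93 to 0.33). The cause was not tested. Txn2, Prdx3 and Prdx4 kept their sign in each comparison under every alternative. Counting error alone gives Txn2 a CV of 12.9% in CTRL inputs, against 43.7% observed, and Txnrd2 a CV of 32.2% in DN inputs, against 41.4% observed. Txnrd2 did not pass the filter for output against input in DN pools without the first pool, so it has no value there. The members' median in the difference lay between -0.58 and -0.12 when 1 pool was left out.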
